A study of Homo sapiens with 9 samples.

Results

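The subject here is a set of 10 integrin subunit genes of epithelial cells, ITGA1, ITGA2, ITGA3, ITGA5, ITGAV, ITGB1, ITGB3, ITGB5, ITGB6 and ITGB8, taken by gene name from 33216 genes measured in each library. The only cells sequenced were CAL-27, an established human line derived from a squamous cell carcinoma of the tongue. The cells were transfected with siRNA against LEF1 (siLEF1), with siRNA against KDM4A (siKDM4A) or with a control that the labels do not describe further (Control), and RNA was taken 48 h later from 3 independent samples per group. LEF1 is a DNA-binding factor at the end of the Wnt pathway, and KDM4A is a histone lysine demethylase. Levels are given in FPKM, which divides the reads of a gene by its exon length and by the depth of the library. Which siRNA of those designed against each target was used for these libraries is not given in the sources used here. RNA alone was measured in these libraries, and in a bulk sample fewer expressing cells and less RNA per cell cannot be told apart.

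Integrins are receptors of the cell surface that pair an alpha with a beta subunit and bind the extracellular matrix, coupling it to the actin cytoskeleton. ITGB1 is the shared beta partner of ITGA1 and ITGA2 (collagen receptors), ITGA3 (a laminin receptor of epithelia) and ITGA5 (the classical fibronectin receptor). ITGAV pairs with ITGB1, ITGB3, ITGB5, ITGB6 or ITGB8 and recognises the RGD motif of fibronectin, vitronectin and the latent form of TGF-beta. In stratified epithelia, ITGA2, ITGA3 and ITGB1 are typical of basal keratinocytes, while ITGB6 is mainly known from wound edges and carcinomas.

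Promoter windows of 5 members are shown before the values. RefSeq windows on GRCh38.p14, each from 250 bases before to 50 bases after an annotated start, matched 8 of the 10 members with 12 windows. ITGA3 and ITGB3 were not matched, and the windows of ITGA1, ITGB5 and ITGB6 and the other windows of ITGAV and ITGB1 were searched but are not printed. Both strands of each window were searched for 4 motifs, TCF/LEF (CTTTGAA or CTTTGAT or CTTTGTA or CTTTGTT), TEAD (GGAATG), AP-1 (TGACTCA or TGAGTCA) and the SP1 box (GGGCGG). No match printed here overlaps another. The windows below run 5' to 3' on the strand of the gene, and capitals mark every match, on either strand. ITGA2 is shown as the alpha subunit lowered in siLEF1, ITGB1 as the subunit raised there, ITGB8 as the member with the largest rise in siKDM4A, ITGA5 because its level differed in opposite directions in the knockdowns, and ITGAV because it alone among the member windows has TCF/LEF letters.
ITGA2 (chr5:52989102-52989401, plus strand): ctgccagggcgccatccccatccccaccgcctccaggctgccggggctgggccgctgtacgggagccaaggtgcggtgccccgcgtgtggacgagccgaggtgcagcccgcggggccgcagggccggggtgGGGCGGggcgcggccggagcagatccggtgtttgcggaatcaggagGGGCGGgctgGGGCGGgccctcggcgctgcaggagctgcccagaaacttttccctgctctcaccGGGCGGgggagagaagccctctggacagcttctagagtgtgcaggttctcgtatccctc
ITGB1 (chr10:32958181-32958480, minus strand): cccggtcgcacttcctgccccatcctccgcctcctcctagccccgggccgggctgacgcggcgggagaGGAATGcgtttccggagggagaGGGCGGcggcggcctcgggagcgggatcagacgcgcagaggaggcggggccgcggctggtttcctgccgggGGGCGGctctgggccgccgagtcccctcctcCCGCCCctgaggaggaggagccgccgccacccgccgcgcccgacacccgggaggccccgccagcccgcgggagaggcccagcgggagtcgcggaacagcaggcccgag
ITGA5 (chr12:54419217-54419516, minus strand): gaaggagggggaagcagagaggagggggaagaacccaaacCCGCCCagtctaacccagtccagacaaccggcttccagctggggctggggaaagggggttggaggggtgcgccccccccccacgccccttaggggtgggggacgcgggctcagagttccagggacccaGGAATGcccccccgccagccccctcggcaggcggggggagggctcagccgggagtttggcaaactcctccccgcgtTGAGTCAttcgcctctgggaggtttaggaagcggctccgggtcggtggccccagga
ITGB8 (chr7:20330650-20330949, plus strand): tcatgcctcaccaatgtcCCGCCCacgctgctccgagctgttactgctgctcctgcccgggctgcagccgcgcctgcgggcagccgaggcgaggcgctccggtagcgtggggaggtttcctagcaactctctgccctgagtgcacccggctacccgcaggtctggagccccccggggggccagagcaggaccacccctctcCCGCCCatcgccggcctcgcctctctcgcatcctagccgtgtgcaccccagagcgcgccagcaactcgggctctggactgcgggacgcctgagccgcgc
ITGAV, a second annotated start inside the gene (chr2:186599955-186600254, plus strand): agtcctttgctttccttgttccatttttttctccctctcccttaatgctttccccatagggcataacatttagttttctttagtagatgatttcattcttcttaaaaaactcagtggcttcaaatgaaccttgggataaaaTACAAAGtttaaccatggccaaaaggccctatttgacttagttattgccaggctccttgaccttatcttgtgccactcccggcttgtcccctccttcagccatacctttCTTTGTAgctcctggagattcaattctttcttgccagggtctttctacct

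TCF/LEF letters, the core to which LEF1 itself binds, were present in 1 of the 12 member windows and in 13.8% of all 35116 windows of 300 bases. That window is the second one of ITGAV, with matches at positions 142 and 251, counted from its 5' end. TEAD letters were present in 2 member windows, at position 169 of ITGA5 and position 69 of ITGB1, against 14% of all windows. AP-1 letters were found in 1, at position 245 of ITGA5, against 4.95%. SP1 boxes were found in 7 member windows, against 45%, and the ITGA2 window alone has 4. GC content was 72.67% in the ITGA2 window, 78.33% in that of ITGB1, 69.33% in that of ITGA5, 71.67% in that of ITGB8 and 41.33% in the second of ITGAV, with a median of 58.67% over all windows. A match is a description of letters, and their absence here says nothing of LEF1 binding elsewhere.

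The targeted genes were examined first. LEF1 was at 1.19, 0.997 and 1.27 FPKM in the Control libraries and at 0.27, 0.246 and 0.23 FPKM in siLEF1, which rests on 83 to 104 reads in Control and 21 to 23 in siLEF1. KDM4A was at 16.5, 16.5 and 16.6 FPKM in Control and at 2.78, 2.76 and 2.78 FPKM in siKDM4A. Both were therefore low in the libraries labelled for their knockdown, past the thresholds given below. KDM4A was also at 13.8 to 14.3 FPKM in siLEF1, below every Control library. LEF1 was likewise at 0.806 to 0.937 FPKM in siKDM4A, below every Control library, but the difference did not pass the test (limma, adjusted p = 0.13). Libraries held 15263193 to 17126670 reads on genes. All 8 epithelial markers (KRT5, KRT14, KRT8, KRT18, EPCAM, CDH1, TP63 and SFN) averaged 1 FPKM or more in Control, with a summed level of 1430 to 1451 FPKM. The sum of 4 leukocyte markers was at most 0.4 FPKM in any library.

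In Control cells the members spanned a wide range of levels (the plot of FPKM by library). ITGA3 was the most abundant at 236 ± 2.23 FPKM (mean ± SD, n = 3 as for each value below), rank 96 of the 33216 genes. It was followed by ITGB1 at 55.5 ± 0.625, ITGA5 at 44.4 ± 1.31, ITGA2 at 34.4 ± 1.11 and ITGAV at 27.9 ± 1.17 FPKM. ITGB5 at 10.5 ± 0.258, ITGB6 at 6.38 ± 0.535 and ITGB8 at 4.16 ± 0.487 FPKM formed a lower tier, and ITGA1 was at 0.916 ± 0.0902 FPKM. ITGB3, the beta subunit of the platelet and endothelial vitronectin receptor, was close to 0. In Control each neighbouring pair in this order was separated, with no overlap between the libraries of one gene and those of the next. FPKM is scaled to exon length, here of all annotated exons of a gene, such as 15156 bases for ITGB8 and 9802 for ITGA3. The order between genes therefore depends on these lengths, and which exons the transcripts held was not examined. The exon length behind the values of ITGB6 was 6357 bases against 4687 in GENCODE release 29, which makes its place in the order less certain.

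**Figure D1:**
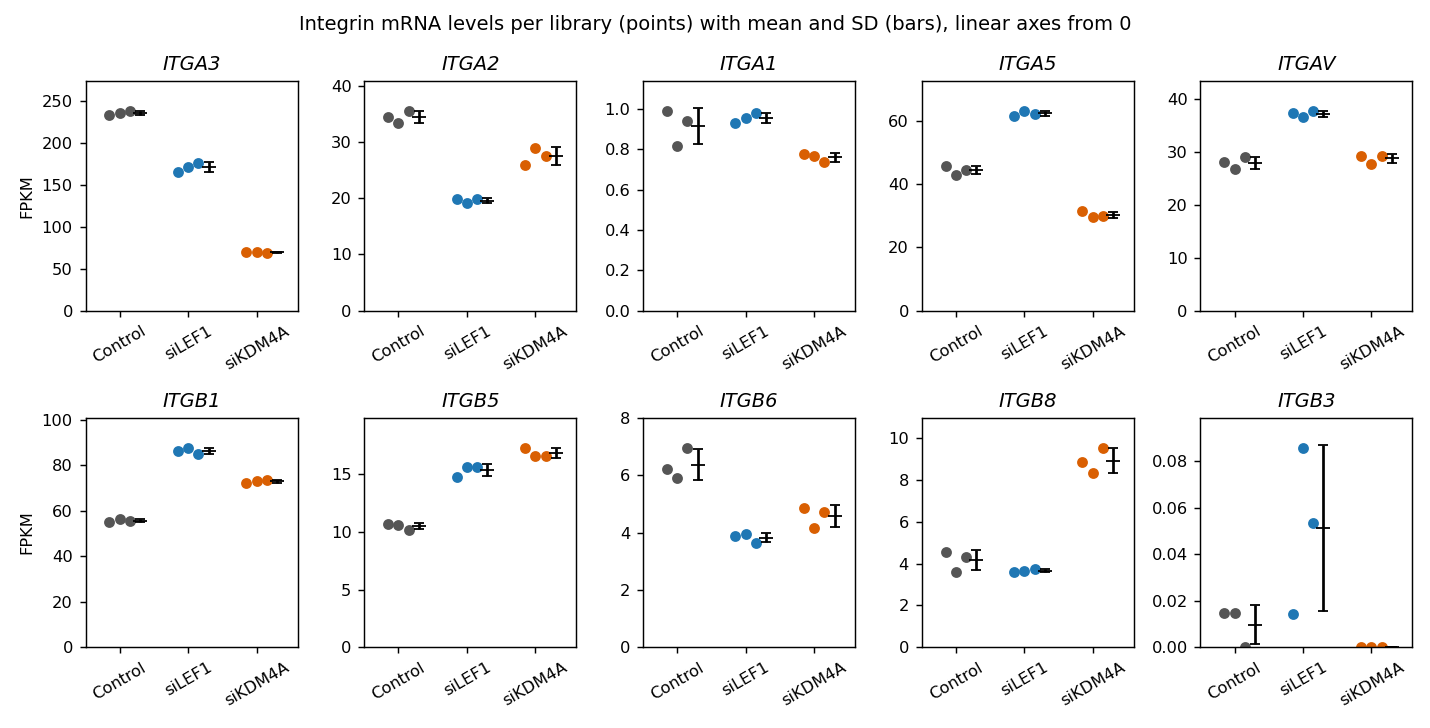
FPKM of each of the 10 integrin genes (y axes, linear from 0, a different scale per gene) in the 3 Control, 3 siLEF1 and 3 siKDM4A libraries, 1 point per library, with bars for the mean and SD. Mean ITGA3 is 236 FPKM in Control, 171 FPKM in siLEF1 and 69.8 FPKM in siKDM4A, ITGA5 goes up in siLEF1 and down in siKDM4A, and ITGB8 stands apart in siKDM4A at 8.9 FPKM.

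Each pair of groups was compared over all genes with limma on log2(FPKM + 0.1), and a gene was called raised or lowered at a Benjamini-Hochberg adjusted p below 0.05 together with a fold change above 1.5. Fold changes on this scale understate those of low genes, more so the closer their level is to 0.1 FPKM. Of the 10 members, 9 passed the filter of 0.1 FPKM in each comparison, and ITGB3 did not. In siLEF1 against Control, ITGB1 was raised and ITGA2 and ITGB6 were lowered, 3 of 9 members, where 11.6% of all 21831 genes tested were called (6.31% raised, 5.31% lowered). For siKDM4A against Control the calls were again 3 of 9, but fell on other members, with ITGB5 and ITGB8 raised and ITGA3 lowered, where 12% of 21253 genes were called (4.23% raised, 7.8% lowered). These comparisons share the Control libraries. By adjusted p alone, without the fold criterion, 7 members differed in siLEF1, against 32.5% of all genes, of which 4 were higher (15.7% of all genes) and 3 lower (16.9%). In siKDM4A 7 members differed as well, against 33.1% of all genes, of which 3 were higher (14.7%) and 4 lower (18.3%). The median log2 fold change over the 9 members was 0.06 in siLEF1 and -0.24 in siKDM4A, beside -0.01 and -0.05 over all genes tested.

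**Figure D2:**
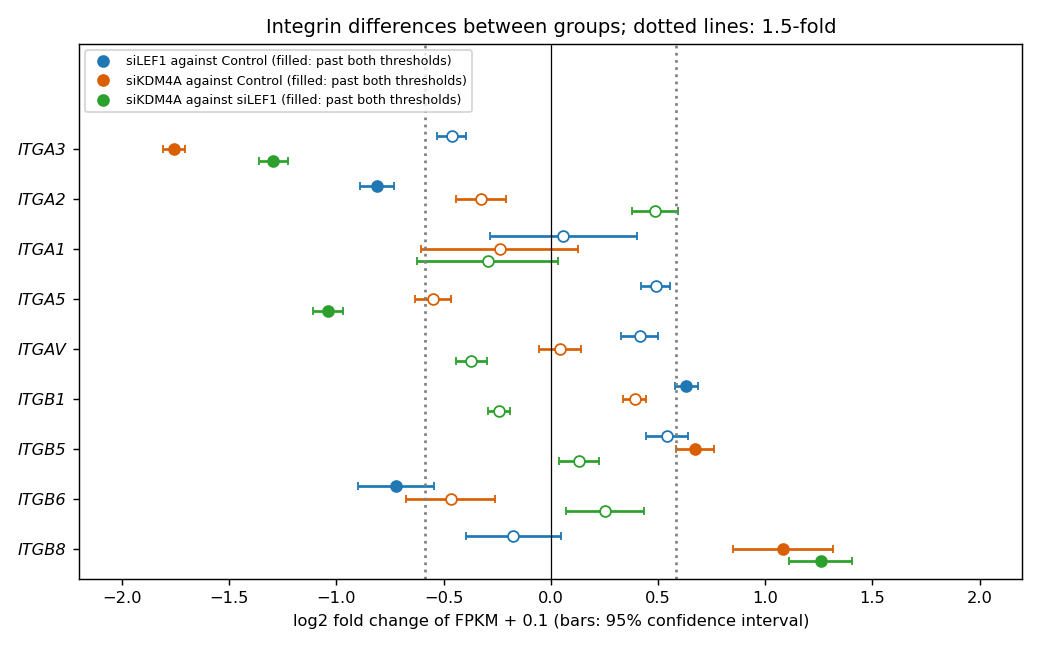
Log2 fold change of FPKM + 0.1 (x axis) of the 9 integrin genes tested, for siLEF1 against Control, siKDM4A against Control and siKDM4A against siLEF1, with 95% confidence intervals as bars. Filled points passed both the adjusted p and the 1.5-fold threshold (dotted lines), and ITGA3 in siKDM4A at -1.76 and ITGB8 in siKDM4A at 1.08 lie farthest from 0 among the comparisons with Control.

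ITGA3 (ENSG00000005884, chromosome 17 of GRCh38, 50055968 to 50090481, plus strand) encodes the alpha subunit of the epithelial laminin receptor. Its level was 234, 236 and 238 FPKM in Control, 166, 172 and 177 FPKM in siLEF1 and 70.5, 70.0 and 68.9 FPKM in siKDM4A. The groups did not overlap, and the siKDM4A libraries were the lowest by a wide margin. Mean FPKM of ITGA3 fell by 70.4% in siKDM4A, a log2 fold change of -1.76 (SE 0.02, limma, adjusted p = 3.3e-07). In siLEF1 the change of the mean was -27.4%, at a log2 fold change of -0.46 (SE 0.03, limma, adjusted p = 4.8e-05), short of 1.5-fold. Compared directly, siKDM4A was below siLEF1 by a log2 fold change of -1.29 (SE 0.03, limma, adjusted p = 1.2e-06), which passed both thresholds. The value rests on 35650 to 35916 reads per library in Control and 11200 to 11567 in siKDM4A.

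ITGA2 (ENSG00000164171, chromosome 5, 52989326 to 53094779, plus strand), the alpha subunit of the main collagen receptor of epithelial cells, showed the reverse order of the knockdowns. It was at 34.4, 33.3 and 35.5 FPKM in Control, 19.8, 19.1 and 19.8 FPKM in siLEF1 and 25.9, 29 and 27.5 FPKM in siKDM4A. All siLEF1 libraries lay below all siKDM4A libraries, and these below all Control libraries. The log2 fold change was -0.81 in siLEF1 (SE 0.03, limma, adjusted p = 1.1e-05), where ITGA2 was called lowered. In siKDM4A it was -0.33 (SE 0.05, limma, adjusted p = 0.0023), and siKDM4A was higher than siLEF1 by 0.48 (SE 0.05, limma, adjusted p = 0.00024), neither of which reached 1.5-fold.

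ITGA1 (ENSG00000213949, chromosome 5, 52787896 to 52959210, plus strand), the alpha subunit of a second collagen receptor, lies upstream of ITGA2 on the same strand and was the least abundant alpha subunit among the members. Its libraries were at 0.989, 0.815 and 0.942 FPKM in Control, 0.93, 0.957 and 0.977 FPKM in siLEF1 and 0.778, 0.765 and 0.736 FPKM in siKDM4A. The siKDM4A libraries were below all others, but the difference did not pass the test. The log2 fold change was -0.24 (95% confidence interval -0.603 to 0.129, limma, adjusted p = 0.3). In siLEF1 it was 0.06, with an interval of -0.285 to 0.402 (limma, adjusted p = 0.8). Exons of ITGA1 overlap those of PELO on the same strand, which held up to 1147 reads against 232 to 309 on ITGA1, so reads could be assigned to either.

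ITGA5 (ENSG00000161638, chromosome 12, 54395261 to 54419460, minus strand) pairs with ITGB1 as a fibronectin receptor. Its level was 45.7, 43.0 and 44.5 FPKM in Control, 61.7, 63.2 and 62.3 FPKM in siLEF1 and 31.4, 29.5 and 30.05 FPKM in siKDM4A. Every siLEF1 library was above Control and every siKDM4A library below it. Mean FPKM was 40.5% higher in siLEF1, at a log2 fold change of 0.49 (SE 0.03, limma, adjusted p = 4.1e-05). In siKDM4A the log2 fold change was -0.55 (SE 0.04, limma, adjusted p = 7.3e-05). Neither reached 1.5-fold on its own, but siKDM4A against siLEF1 did, with a log2 fold change of -1.04 (SE 0.03, limma, adjusted p = 2.6e-06), and mean FPKM fell by 51.4% from siLEF1 to siKDM4A. The ITGA5 window printed above holds the only AP-1 letters among the 12 member windows, beside 4.95% of all windows, and a link to its level was not tested.

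ITGAV (ENSG00000138448, chromosome 2, 186590065 to 186680901, plus strand), the alpha subunit of the RGD-binding receptors, was at 28.0, 26.7 and 29.01 FPKM in Control, 37.3, 36.6 and 37.7 FPKM in siLEF1 and 29.3, 27.8 and 29.2 FPKM in siKDM4A. The siLEF1 libraries stood above both other groups, which overlapped. The log2 fold change in siLEF1 was 0.41 (SE 0.04, limma, adjusted p = 0.00023), short of 1.5-fold. For siKDM4A it was 0.04, with a 95% confidence interval of -0.053 to 0.141 (limma, adjusted p = 0.46). The direct difference between the knockdowns was -0.37 (SE 0.03, limma, adjusted p = 0.00014).

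ITGB1 (ENSG00000150093, chromosome 10, 32900319 to 33005792, minus strand), the common beta subunit, was higher in both knockdowns. It was at 55.0, 56.2 and 55.5 FPKM in Control, 86.1, 87.7 and 84.8 FPKM in siLEF1 and 72.3, 73.1 and 73.4 FPKM in siKDM4A. The groups did not overlap, with siLEF1 the highest. Mean FPKM was 55.1% higher in siLEF1, where ITGB1 was called raised at a log2 fold change of 0.63 (SE 0.02, limma, adjusted p = 7.7e-06). This is near the 1.5-fold threshold, and limma's treat, which tests against 1.5-fold directly, gave an adjusted p of 0.586. In siKDM4A the log2 fold change was 0.39 (SE 0.02, limma, adjusted p = 4.2e-05), below 1.5-fold. ITGB1P1, a processed pseudogene of ITGB1 that could take some of its reads, was at 20.2 ± 1.05 FPKM in Control, 28.4 ± 0.491 in siLEF1 and 26.9 ± 0.674 in siKDM4A. With the reads of both summed, an alternative chosen after seeing the data, the log2 fold changes were 0.63 in siLEF1 and 0.39 in siKDM4A, and the calls were the same.

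ITGB5 (ENSG00000082781, chromosome 3, 124761948 to 124901418, minus strand) forms a vitronectin receptor with ITGAV. It was at 10.7, 10.6 and 10.2 FPKM in Control, 14.7, 15.7 and 15.7 FPKM in siLEF1 and 17.3, 16.6 and 16.6 FPKM in siKDM4A. Both knockdowns lay above Control without overlap. ITGB5 was called raised in siKDM4A, at a log2 fold change of 0.67 (SE 0.04, limma, adjusted p = 3.9e-05), although treat against 1.5-fold gave an adjusted p of 0.419. In siLEF1 the log2 fold change was 0.54 (SE 0.04, limma, adjusted p = 0.00012), just short of 1.5-fold. The siKDM4A and siLEF1 levels differed by 0.13 (SE 0.04, limma, adjusted p = 0.036), a difference far below 1.5-fold.

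ITGB6 (ENSG00000115221, chromosome 2, 160099666 to 160200313, minus strand), whose product activates latent TGF-beta together with ITGAV, was lower in both knockdowns. It was at 6.23, 5.92 and 6.97 FPKM in Control, 3.89, 3.94 and 3.65 FPKM in siLEF1 and 4.87, 4.16 and 4.72 FPKM in siKDM4A. No knockdown library reached the lowest Control library. Mean FPKM fell by 40.0% in siLEF1, a log2 fold change of -0.72 (SE 0.07, limma, adjusted p = 0.00049), with an adjusted p of 0.754 by treat. The log2 fold change in siKDM4A was -0.47 (SE 0.09, limma, adjusted p = 0.0064), short of 1.5-fold.

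ITGB8 (ENSG00000105855, chromosome 7, 20330702 to 20415754, plus strand) encodes the other beta subunit through which ITGAV activates latent TGF-beta, and it was higher in siKDM4A. Its level was 4.55, 3.61 and 4.31 FPKM in Control, 3.58, 3.65 and 3.74 FPKM in siLEF1 and 8.86, 8.31 and 9.52 FPKM in siKDM4A. All siKDM4A libraries were far above the rest, while siLEF1 overlapped Control. Mean FPKM was 114% higher in siKDM4A, with a log2 fold change of 1.08 (SE 0.1, limma, adjusted p = 0.00027). In siLEF1 the log2 fold change was -0.17, with a 95% confidence interval of -0.397 to 0.048 (limma, adjusted p = 0.21). The direct comparison gave 1.26 (SE 0.06, limma, adjusted p = 1.7e-05) and passed both thresholds. ITGB8 rests on 850 to 1073 reads per library in Control and 2057 to 2472 in siKDM4A.

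ITGB3 (ENSG00000259207, chromosome 17, 47253846 to 47311816, plus strand) held 1, 1 and 0 reads in Control, 1, 6 and 4 in siLEF1 and 0, 0 and 0 in siKDM4A. A level at which 3 reads would be found was 0.0399 to 0.0447 FPKM in these libraries, and 2 siLEF1 libraries were above it, at 0.0857 and 0.0534 FPKM. No difference can be shown at this depth. These limits cover counting error only.

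When siKDM4A was compared with siLEF1 over 21493 genes, 3 of the 9 members were called, ITGB8 raised and ITGA3 and ITGA5 lowered, where 15.3% of all genes were called (5.28% raised, 10% lowered). By adjusted p alone 8 of 9 members differed, against 36.9% of all genes, with 4 higher (16.8% of all genes) and 4 lower (20.1%). The knockdowns thus differed from each other in members that both left on the same side of Control, such as ITGA3, as well as in ITGA5, which they placed on opposite sides. The groups did not overlap for 7 of 9 members in siLEF1 against Control, 8 in siKDM4A against Control and 9 in siKDM4A against siLEF1, beside 46.3%, 47.1% and 49.6% of all genes tested.

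The order of the levels followed these differences. In siLEF1, ITGAV stood above ITGA2, and the libraries of ITGB6 and ITGB8 overlapped. That overlap rests on the uncertain exon length of ITGB6 given above. In siKDM4A, ITGB1 at 72.9 ± 0.565 FPKM stood above ITGA3 at 69.8 ± 0.825 FPKM, ITGAV and ITGA2 overlapped, and ITGB8 stood above ITGB6. The small margin of ITGB1 over ITGA3 depends on the exon lengths used, 6011 and 9802 bases. The ratio of ITGA3 to ITGB1 was 4.25 ± 0.0478 in Control, 1.99 ± 0.0835 in siLEF1 and 0.957 ± 0.0184 in siKDM4A. The summed FPKM of the 5 alpha members was 344 ± 4.24 in Control, 292 ± 6.05 in siLEF1 and 157 ± 0.8 in siKDM4A, whereas that of the 5 beta members was 76.6 ± 0.344, 109 ± 1.69 and 103 ± 1.11 FPKM. ITGB1 made up most of each beta sum. ITGA3 made up most of the alpha sum in Control and siLEF1, but 44.4% of it in siKDM4A, where ITGA3 was still the largest alpha member. These sums hold the members only. ITGB4, outside the set and paired with ITGA6, was at 152 FPKM in Control, 131 FPKM in siLEF1 and 67.6 FPKM in siKDM4A, so the beta sums give no direction for beta subunits as a whole.

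Shares of the alpha and beta transcripts are drawn in the plot of percent by library. ITGA3 made up 68.7% ± 0.667 of the alpha members in Control, 58.8% ± 0.673 in siLEF1 and 44.4% ± 0.318 in siKDM4A. The share of ITGA2 was 10.01% ± 0.201 in Control, lower in siLEF1 at 6.72% ± 0.188 and higher in siKDM4A at 17.5% ± 1.03. ITGAV held 8.12% ± 0.243 in Control, 12.8% ± 0.259 in siLEF1 and 18.3% ± 0.53 in siKDM4A, although its own level in siKDM4A overlapped Control. Shares of one sum are tied to each other, so they do not show which subunit differed.

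Among the beta partners that ITGAV has beside ITGB1, ITGB5 held 49.99% ± 2.56 of the summed FPKM in Control, 67.1% ± 0.756 in siLEF1 and 55.5% ± 1.65 in siKDM4A. ITGB6 held 30.3% ± 1.87, 16.7% ± 0.87 and 15.1% ± 0.707, and ITGB8 held 19.7% ± 1.64, 16.0% ± 0.301 and 29.3% ± 1.33. The ratio of ITGB8 to ITGB6, the subunits of the TGF-beta activating receptors, was 0.653 ± 0.0666 in Control, 0.957 ± 0.0585 in siLEF1 and 1.94 ± 0.108 in siKDM4A, with no overlap between groups. The size of this ratio depends on the exon lengths used for ITGB8 and ITGB6, but its order between the groups does not. With 3 libraries against 3 an exact permutation test of such a ratio cannot go below p = 0.1, and the shares and ratios were not tested.

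Genes whose pattern was most like that of a member were taken by Pearson correlation of log2(FPKM + 0.1) over the 9 libraries, among 12586 genes that averaged 1 FPKM or more. The 9 points are 3 groups of 3, so a high value mainly says that the group means are ordered and spaced alike. OAS2, an antiviral enzyme (r = 0.999), the growth factor receptor EGFR (r = 0.998) and the translation factor EIF4G3 (r = 0.998) were closest to ITGA3. EGFR was at 224 FPKM in Control, 188 in siLEF1 and 117 in siKDM4A. Closest to ITGA5 was the anchoring fibril collagen COL7A1 (r = 0.997), at 6.74, 12.3 and 3.17 FPKM, with the protease CAPN2 and AMOTL1 next. For ITGB1 they were ERLIN2, the matrix glycoprotein TNC (r = 0.997) and IRS1, and for ITGA2 PDK1 (r = 0.997), TOB2 and REEP3. Among the genes closest to ITGB5 were INSIG1 (r = 0.996), known from cholesterol control, and WBP11 (r = 0.995). ITGAV was followed by HIST1H2BD, KIAA1522 and ST14, ITGB6 by EGLN1 (r = 0.988), TM7SF2 and U2AF2, and ITGB8 by ZBTB38 (r = 0.992), PPP1R3B and MIGA2.

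The ligands and partners of these receptors were followed in lists of genes (the plot of differences by list). Of 10 RGD and matricellular ligands, 8 were tested, and 8 were raised in siLEF1 and 6 in siKDM4A, beside 6.31% and 4.23% of all genes, with none lowered in either. The list medians were 1.29 and 1.34 on the log2 scale, beside -0.01 and -0.05 over all genes. CTGF, a matricellular ligand that the study had picked from these same libraries, averaged 7.85 FPKM in Control, 23.9 FPKM in siLEF1 and 37.2 FPKM in siKDM4A, with log2 fold changes of 1.59 and 2.23 (limma, adjusted p = 2.6e-05 and 7.4e-06). CYR61, a related ligand of ITGAV receptors, was at 116, 317 and 333 FPKM, and THBS1, thrombospondin, at 91.5, 236 and 245 FPKM. Their log2 fold changes were 1.45 and 1.36 in siLEF1 and 1.52 and 1.42 in siKDM4A, past both thresholds.

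Of 8 collagen genes tested, 5 were raised in siLEF1 and 3 in siKDM4A, beside 6.31% and 4.23% of all genes, with none lowered, while the collagen receptor subunit ITGA2 was lower in both. The list medians were 1.33 and 0.52, beside -0.01 and -0.05 over all genes. The basement membrane collagen COL4A1 was at 8.34 FPKM in Control, 31.5 in siLEF1 and 18.0 in siKDM4A, log2 fold changes of 1.91 and 1.1 (limma, adjusted p = 4.3e-06 and 3.2e-05). COL4A6 was raised in siLEF1 by 1.92 on the log2 scale and COL5A1, a fibrillar collagen, by 1.82. In siKDM4A, COL5A1 and COL4A2 were raised as well, by 0.89 and 0.80. Of the 8, 5 were lower in siKDM4A than in siLEF1 by the direct comparison, past both thresholds, and none was higher. Of all genes, 10% were lowered and 5.28% raised in that comparison.

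Laminin chains are the ligands of ITGA3. Of the 7 tested, 0 were raised in either knockdown against Control, beside 6.31% of all genes in siLEF1 and 4.23% in siKDM4A. In siLEF1 1 was lowered and in siKDM4A 3 were, beside 5.31% and 7.8% of all genes. The list medians were 0.14 in siLEF1 and -0.30 in siKDM4A, beside -0.01 and -0.05 over all genes. In siKDM4A, LAMA5 was lowered from 54.3 to 23.9 FPKM, at -1.18 on the log2 scale (limma, adjusted p = 3.4e-05), and LAMA3 from 15.4 to 8.91 FPKM, at -0.79 (limma, adjusted p = 2.6e-05). In siLEF1, LAMB3 was lowered, from 349 to 212 FPKM, by a log2 fold change of -0.72. Short of 1.5-fold there, LAMA3 was higher at 0.30 and LAMA5 lower at -0.33 (limma, adjusted p = 0.00028 and 0.0065). In the latent TGF-beta list, LTBP3, a binding protein of the latent complex, was lowered in both knockdowns, by log2 fold changes of -0.64 and -0.96. LTBP1 was raised in siLEF1 by 0.89 from a low level, and is named after its value was seen.

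Of the other integrin subunits, 9 of 15 were tested, none was called in siLEF1, where 11.6% of all genes were, and 5 were lowered in siKDM4A, where 7.8% of all genes were. The list medians were 0.07 and -0.71, beside -0.01 and -0.05 over all genes. At an unadjusted p below 0.05, 3 of the 9 differed in siLEF1 by limma, and voom on the recovered reads also called 0. ITGB4 and ITGA6, the subunits of hemidesmosomes, fell by 1.17 and 0.88 on the log2 scale in siKDM4A. In siLEF1 both were below every Control library, at -0.21 and -0.20 (limma, adjusted p = 0.0013 and 0.0015), short of 1.5-fold. The others lowered were ITGA4, ITGAM and ITGAX, each named after its value was seen and each below 1 FPKM in siKDM4A. ITGA8 was not analysed here.

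Of 26 adaptors and activators of integrins tested, 3 were called in siLEF1, a share close to the 11.6% of all genes called in either direction. All 3 were raised, beside 6.31% of all genes. In siKDM4A 6 were called, 1 raised and 5 lowered, beside 4.23% and 7.8% of all genes, and the list medians were 0.03 in siLEF1 and -0.23 in siKDM4A, beside -0.01 and -0.05 over all genes. TNS4, a tensin of epithelial focal adhesions, went in opposite directions, averaging 6.82 FPKM in Control, 15.5 FPKM in siLEF1 and 2.82 FPKM in siKDM4A, a direct log2 difference of -2.42 (limma, adjusted p = 5.4e-06). TNS3 was raised in siKDM4A, from 14.5 to 22.8 FPKM, and TNS2 was lowered there, from 1.52 to 0.822 FPKM. NEDD9 and FERMT3 were raised in siLEF1, by 0.87 and 0.71 on the log2 scale, both from under 1 FPKM. Of 6 inhibitors of integrin activation, 2 were lowered in siKDM4A, beside 7.8% of all genes, the actin crosslinker FLNA at -0.60 and SHARPIN at -0.59 on the log2 scale, just past 1.5-fold, and none was called in siLEF1, where 2 had an unadjusted p below 0.05 by limma and voom called 0. Among 9 lateral partners in the membrane, CD47 fell by 1.60 on the log2 scale in siLEF1, from 53.4 ± 0.755 to 17.5 ± 0.372 FPKM (limma, adjusted p = 9.3e-07), and was at 46.8 ± 0.608 FPKM in siKDM4A. CD82, a tetraspanin, was the only one lowered in siKDM4A, at a log2 fold change of -0.80. The calls were thus 1 of 9 in each knockdown, both lowered, beside 5.31% and 7.8% of all genes. The medians of this list were positive, at 0.10 in siLEF1 and 0.16 in siKDM4A, beside -0.01 and -0.05 over all genes.

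**Figure D3:**
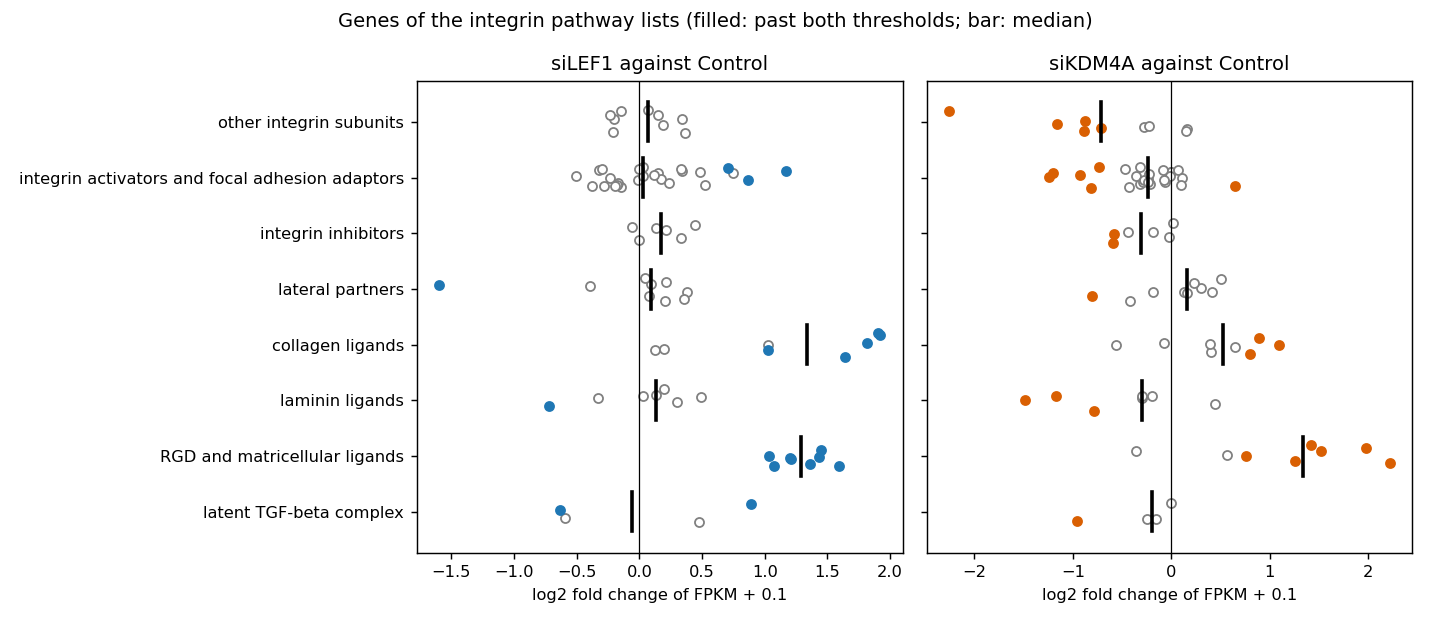
Log2 fold change of FPKM + 0.1 (x axes) of each tested gene of the 8 lists, for siLEF1 (left) and siKDM4A (right) against Control, with a bar at the list median and filled points for genes past both thresholds. All 8 RGD and matricellular ligands tested are raised in siLEF1, while the laminin points called in siKDM4A lie to the left of 0.

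Markers of cell types moved beside the members in part. The summed epithelial markers were at 1453 to 1480 FPKM in siLEF1, just above the 1430 to 1451 FPKM of Control. None of the 8 was called there, where 11.6% of all genes were. EPCAM, CDH1, TP63 and SFN lay above every Control library in siLEF1, and KRT8 and KRT18 below. In siKDM4A the sum was at 936.9 to 948.9 FPKM. Of the 8, KRT5, KRT14, TP63 and SFN were lowered there and EPCAM raised, beside 7.8% and 4.23% of all genes. KRT8, KRT18 and CDH1 were not called but lay above every Control library in siKDM4A, so the sum mixes falls and rises. KRT8 went from 231 to 308 FPKM and KRT18 from 128.5 to 182 FPKM. KRT5 went from 231 to 25.4 FPKM in siKDM4A, alongside the fall of ITGA3. The summed 5 fibroblast markers ranged over the Control libraries from 1.09 to 1.28 FPKM, over siLEF1 from 2.04 to 2.66 FPKM and over siKDM4A from 0.822 to 1.26 FPKM. Of the 2 tested, PDGFRB was the 1 called against Control, raised in siLEF1, where 6.31% of all genes were. DCN was at 0 in every Control library. The summed 3 endothelial markers ranged over the Control libraries from 0.694 to 1.25 FPKM. Over siLEF1 they ranged from 1.96 to 2.39 FPKM and over siKDM4A from 2.46 to 2.86 FPKM. CDH5 was the 1 raised in both, of 2 tested in siLEF1 and 1 in siKDM4A, beside 6.31% and 4.23% of all genes. PECAM1 was below 0.1 FPKM in each group. The part of these markers in the integrin differences was not tested.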

How the data were processed

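The transcriptome of CAL-27 cells was measured by RNA-seq in 9 libraries, 3 each of Control, siLEF1 and siKDM4A by their labels. The deposited values are FPKM, 1 table per library. The authors' processing notes name Trimmomatic, HISAT2, Cufflinks, HTSeq and hg38, without versions. The mRNA kit was stranded, but the strand setting of the counting is not given in the sources used here. FPKM values of a gene came in steps, and with exon lengths of GENCODE release 29, or a length inferred from the steps, 100% of the genes above 0 gave whole reads within 0.01 reads (95.01% at the GENCODE length). Libraries held 15263193 to 17126670 reads on genes, and 3 reads on 1 kb of exon correspond to 0.175 to 0.197 FPKM.

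Pairs of groups were compared by limma 3.58.1 in R 4.3.3 (lmFit, eBayes with a trend), on log2(FPKM + 0.1) of all genes whose mean over the 6 libraries was 0.1 FPKM or more. A call needed an adjusted p (Benjamini-Hochberg) under 0.05 and more than 1.5-fold, as in the study's methods. The fit was tested on simulated data. Tables, ratios and motif searches were made with Python 3.11.15, promoter windows are from RefSeq and positions from GENCODE. Alternatives were other pseudocounts and filters, scaled libraries, other limma settings, stricter fold criteria, a replicate block, voom on the recovered reads and leaving out each library. Members, gene lists and tests were chosen with earlier results of these data known. The text names the members, the targeted genes, the markers, from each list the 3 genes at 1 FPKM or more with the largest called change against Control, and the 3 genes most like each member. Some genes that this rule would name are not reported here.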

Additional observations from a re-analysis of the deposited data

How the results depend on the processing

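Each of the 27 member differences was refitted under 11 alternatives and without each of 6 libraries in turn, 459 values in all with ITGB1P1 summed in, except that a filter at 1 FPKM left out ITGA1. No call was reversed or gained. Stricter fold criteria removed 7 by construction. With a fold change above 2, 0 members were called in siLEF1 against Control, and with treat against 1.5-fold 1 was, ITGA2. ITGB5 in siKDM4A lost its call under both. With any 1 library left out, 3 members were called in each comparison. The log2 fold change of ITGA1 in siLEF1 ranged from -0.01 to 0.11 without 1 library, never called. The replicate block, a fit with the replicate number as a factor, called 3 members in each comparison and 2245, 2305 and 2953 genes. Deviations from the group means correlated by -0.04 to 0.043 between same-numbered libraries of different groups, so the numbers were not taken to pair samples.

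Over all genes, 2538, 2556 and 3289 were called in siLEF1, siKDM4A and siKDM4A against siLEF1. The counts were 1405, 1462 and 1841 with a pseudocount of 1 FPKM, for which the cause was not tested, 1070, 1079 and 1493 above 2-fold and 566, 586 and 925 with treat. Of the list genes 20, 27 and 29 were called, 13 in siLEF1 with a pseudocount of 1 FPKM, 12 in siKDM4A and 11 in the direct comparison above 2-fold, and 12, 15 and 14 with treat. ITGB3 had too few reads to test, and ITGA1, at 232 to 309 reads per library, had wide intervals.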
